A study of Mus musculus with 12 samples.

Results

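Brain-derived neurotrophic factor (Bdnf), its relative neurotrophin 3 (Ntf3) and the receptors that these factors bind, Ntrk2, Ntrk3, Ngfr and Sort1, were followed as 6 of the 23282 gene rows of a 3′ RNAseq study of Huntington's disease (HD) mouse brain. The members were taken by symbol, and each had 1 row in every library. The study profiled 12 libraries of striatum (STR) and cortex (CTX). R6/2 HD mice, whose transgene expresses exon 1 of human HTT with an enlarged CAG tract while both of their own Htt copies stay intact, were sampled post-symptom onset at 13 weeks (postHD) and pre-symptomatically at 8 weeks (preHD), with 2 libraries per region and age. WT littermates of 13 weeks (postWT) and 8 weeks (preWT) gave 1 library per region and age.

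R6/2 mice make a short N-terminal fragment of mutant huntingtin from the human HTT promoter, so they model a fragment disease and not the full-length gene. The labels do not say whether the striatal and cortical libraries with 1 number came from 1 mouse. They also do not say that replicates were separate mice, but in each HD group one library held male and the other female RNA by Xist and Y-linked counts, so these were different animals and the spread between them includes sex.

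Neurotrophins are secreted growth factors made as longer precursors and trimmed to a mature form. Mature BDNF acts through the receptor tyrosine kinase TrkB (Ntrk2), neurotrophin 3 acts mainly through TrkC (Ntrk3), and the precursors bind the p75 receptor (Ngfr) together with sortilin (Sort1), which also sorts BDNF into secretory vesicles. Striatal projection neurons make little BDNF themselves and receive most of it from cortical neurons, whose axons carry it to the striatum, and this supply is a long-studied theme in HD.

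Total counts per library were 8814386 to 12091201. The ribosomal RNA row Rn45s took 10.5% to 15.2% of counts in HD and 4.32% to 5.62% in WT. By the same counts replicate 1 was the male in every HD group, postWT was female and preWT male. Age and sex therefore cannot be told apart in WT. The change with age in HD less that in WT carries the same limit. The labelled tissues carried their markers: the summed level of 8 striatal neuron markers was 968 to 5095 CPM in the striatal and 116 to 285 CPM in the cortical libraries. Drd2 and Gpr6, which belong to that list, had at most 4 and 2 reads in any library, WT striatum included. The second preHD-STR library stood apart. Against the first one, none of the 8 striatal markers was higher and the median log2 difference was -1.37. Drd2 and Gpr6, counted among the 8, had 0 reads in both of these libraries. All 7 oligodendrocyte markers were higher with a median of 2.63 and all 5 thalamic markers were higher with a median of 5.52. Its summed thalamic level was 1076 CPM where the other 11 libraries had 35.4 to 93.4 CPM. The 4 choroid plexus markers summed to 953 CPM in that library and to 3024 CPM in the second postHD-CTX library, against 2.09 to 125 CPM in the other 10. The part of such tissue in the results was not tested. Some results that change without either library are given with and without it, and others only as ranges over all libraries left out.

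Bdnf lies at chr2:109674700-109727007 on the plus strand (GRCm38, GENCODE M21). Its 11 annotated coding transcripts start at 9 different 5′ ends and all finish at the same 3′ end, 109727007. Bdnf is known for having several promoters with their own regulation. The count of reads at the 3′ end adds their transcripts together, so the values below are a summed output. In RefSeq (GRCm38.p6), 7 Bdnf start sites have an entry, and the 250 bases before each were searched on both strands for the full cAMP response element TGACGTCA, its core TGACG, and the E-box forms CACGTG and CACGTC. None of the 7 windows held TGACGTCA and 1 held the core, read as CGTCA on the Bdnf strand with its first base at position -35 from the start. That match overlaps one of CACGTC. The first and the third windows are printed to show the promoter farthest upstream and the one that holds the core, which is in capitals.
Bdnf, chr2:109674450-109674699, plus strand: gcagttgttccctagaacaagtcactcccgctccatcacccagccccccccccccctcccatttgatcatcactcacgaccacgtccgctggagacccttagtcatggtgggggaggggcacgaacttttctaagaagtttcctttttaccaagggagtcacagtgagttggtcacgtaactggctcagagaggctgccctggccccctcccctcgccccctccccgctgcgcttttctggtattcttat
Bdnf, chr2:109692186-109692435, plus strand: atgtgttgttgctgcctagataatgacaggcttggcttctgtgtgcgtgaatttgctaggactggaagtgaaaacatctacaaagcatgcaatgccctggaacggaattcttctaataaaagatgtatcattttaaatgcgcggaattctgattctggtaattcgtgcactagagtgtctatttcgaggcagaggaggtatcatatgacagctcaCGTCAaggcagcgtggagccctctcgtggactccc
Of all 32851 RefSeq windows of this length, 17.8% hold TGACG, 1.55% hold TGACGTCA, 6.02% hold CACGTG and 5.2% hold CACGTC. A match is a run of letters and was not tested as a binding site.

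Bdnf was a cortical transcript in these libraries. In cortex its level, as CPM (read counts relative to the library total, corrected by TMM factors), was 64.8 and 67.2 in postHD, 85.9 and 142.9 in preHD, 100.9 in postWT and 85.1 in preWT. In striatum it was 5.76 and 3.86 CPM in postHD, 3.26 and 11.4 CPM in preHD, 3.34 CPM in postWT and 12.7 CPM in preWT. All 6 cortical libraries lay above all 6 striatal ones. These levels came from 750 to 1314 reads in cortex and from 28 to 126 reads in striatum, so the striatal values carry the larger counting error; that of the first preHD-STR library had a 95% Poisson interval of 2.16 to 4.71 CPM, which covers counting error only.

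Striatum had 14.2-fold less Bdnf than cortex (log2 -3.82 ± 0.35 SE, edgeR quasi-likelihood adjusted p = 4.92e-05, all 12 libraries). In the 6 pairs of libraries of the same genotype, age and number, the cortex to striatum ratio ran from 6.72 in preWT to 30.2 in postWT, with 11.2 and 17.4 in postHD and 26.4 and 12.6 in preHD. Bdnf was lower in striatum in 6 of 6 pairs (exact permutation test within pairs, two-sided p = 0.0312, the smallest its 64 arrangements allow, and 0.0468 after adjustment over the 6 members). In this comparison 20.6% of the 14706 genes tested passed the threshold, an adjusted p under 0.05, and 12.1% were lower in striatum; 5.2% had all striatal libraries below all cortical ones.

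In the cortex of HD mice, the 2 postHD values of Bdnf lay below the 2 preHD values, but the difference did not pass the test. The mean was 114 ± 40.3 CPM (SD, n = 2) in preHD-CTX and 66.0 ± 1.72 CPM (SD, n = 2) in postHD-CTX, 57.7% of the earlier level. The log2 change was -0.81 ± 0.49 SE (edgeR adjusted p = 0.524). The second preHD-CTX library was far above the first, and the first was at the level of preWT. In striatum the HD ages overlapped, and the log2 change was -0.58 ± 0.56 SE (edgeR adjusted p = 0.725). With both regions in 1 fit the change was -0.72 ± 0.35 SE (edgeR adjusted p = 0.266; exact permutation test of age within region, p = 0.278).

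Without the first preHD-STR library the 2-region change was -0.94 (edgeR adjusted p = 0.0139) and the striatal one -1.22 (edgeR adjusted p = 0.04999), both past the threshold, so 1 library with 28 Bdnf reads decided that call. Without the second preHD-STR library the 2-region change was -0.44 (edgeR adjusted p = 0.411) and the striatal one turned to 0.57 (edgeR adjusted p = 0.491). The 2 preHD-STR libraries differed more than any other pair, and with either left out the spread of the remaining one is taken from the other groups.

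Against WT, the direction for Bdnf differed by region and age. In cortex the log2 ratio of the HD mean to WT was -0.61 at 13 weeks, with both HD libraries lower, and 0.43 at 8 weeks, with 1 HD library level with WT and the other higher. In striatum the ratio was 0.53 at 13 weeks and -0.79 at 8 weeks. These are ratios to a single WT library, with no test. With both regions fitted together HD was -0.23 ± 0.47 SE from WT at 13 weeks (edgeR adjusted p = 0.836) and -0.21 ± 0.47 SE at 8 weeks (edgeR adjusted p = 0.895), and the change with age in HD less that in WT was -0.02 ± 0.70 SE (edgeR adjusted p = 0.998). The log2 ratio of the 13-week to the 8-week WT library was itself -1.92 in striatum and 0.25 in cortex. It sets female against male libraries, so age and sex cannot be told apart in it.

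Markers of cortical excitatory neurons were read beside the low striatal Bdnf. The summed level of the 8 markers was 253 CPM in preWT-STR, 163 to 173 CPM in preHD-STR, 64.4 to 95.5 CPM in postHD-STR and 96.2 CPM in postWT-STR, against 1186 to 1903 CPM in cortex. The striatal library with the most Bdnf, preWT-STR, also had the highest cortical marker level, but the one with the least Bdnf, the first of preHD-STR, had the next highest, at 173 CPM. The part of cortical cells in the striatal Bdnf values was not tested.

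Ntf3 was near the limit of detection. Its counts were 0 to 10 reads per library, 4 of the 12 libraries held none, and it did not pass the filter on low counts in any fit. In cortex the counts were 4 and 10 in postHD, 0 and 2 in preHD, 1 in postWT and 3 in preWT. In striatum they were 6 and 0 in postHD, 0 and 7 in preHD, 0 in postWT and 2 in preWT. A count of 0 allows a level of up to 0.349 CPM (3 reads) in these libraries. Neither a region nor a genotype effect could be read at this depth (exact permutation tests, p = 0.688 for region and 0.444 for age in HD). Ntf3 lies at chr6:126101412-126166910 on the minus strand.

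**Figure D1:**
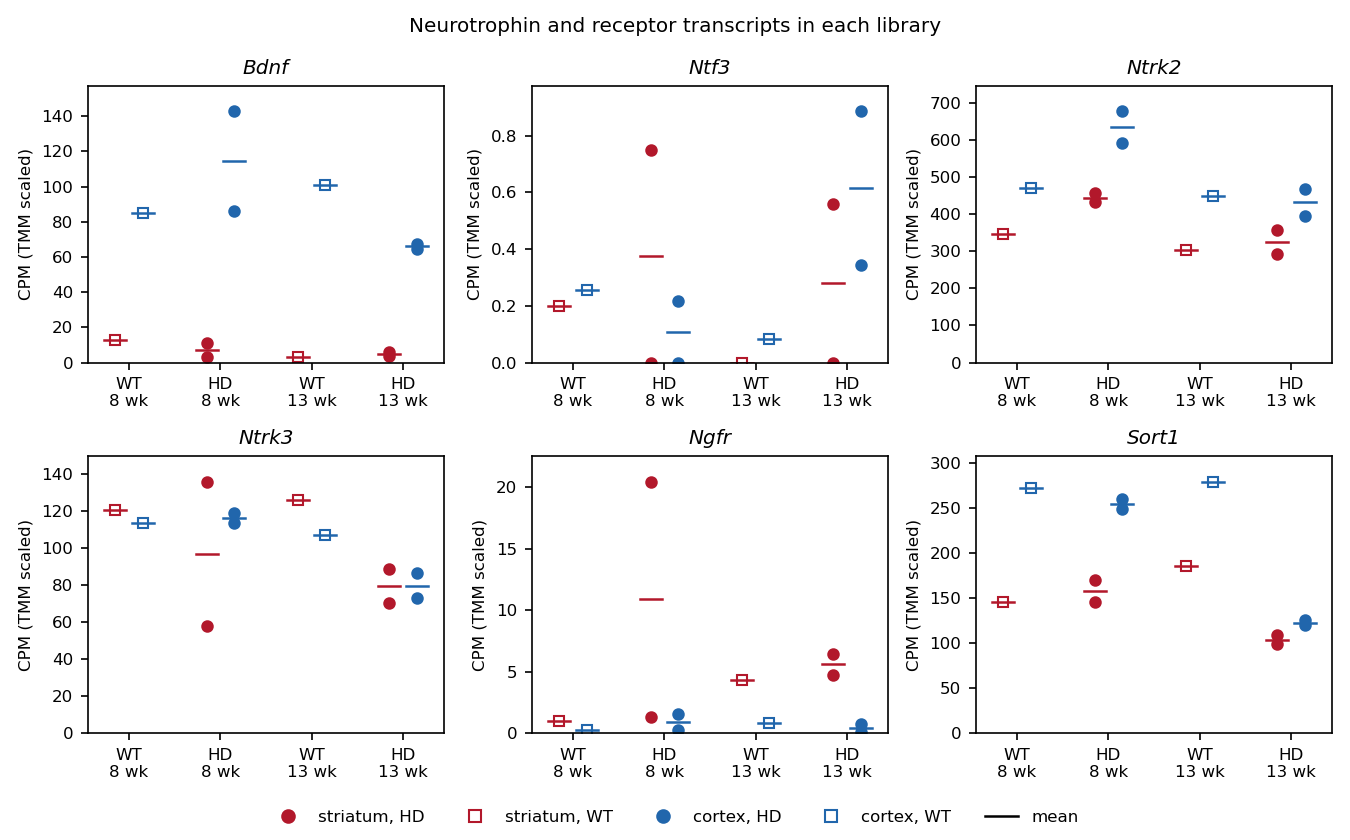
Level of each of the 6 transcripts in every library, in TMM-scaled CPM from 0 upwards with a separate scale per gene. Red is striatum and blue is cortex; filled circles are HD libraries, open squares are WT libraries, and bars mark the mean of each group (the single value in WT). Sort1 at 13 weeks is 99.0 to 126 CPM in the 4 HD libraries and 186 and 279 CPM in the WT ones.

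Of the receptors, Ntrk2 was lower in HD mice post-symptom onset than before it, in both regions. In striatum its level was 356 and 294 CPM in postHD and 457 and 432 CPM in preHD. In cortex it was 469 and 396 CPM in postHD and 678 and 592 CPM in preHD. The ages did not overlap in either region; 11% of the genes tested in HD were lower without overlap in both regions. The log2 change over both regions was -0.50 ± 0.12 SE, a 1.41-fold decrease (edgeR adjusted p = 0.0339), with -0.42 ± 0.17 SE in striatum (edgeR adjusted p = 0.340) and -0.57 ± 0.17 SE in cortex (edgeR adjusted p = 0.174), which passed only with a preHD-STR library left out. Of the 13944 genes tested in that comparison 6.45% passed the threshold and 4.53% were lower. The exact permutation test of age within region gave p = 0.0556, the smallest its 36 arrangements allow.

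The Ntrk2 call rested on single libraries and on the scaling. It was lost in 5 of the 8 fits that left out a library, those without any one of the 4 HD cortical libraries or the second postHD-STR library, with log2 changes from -0.53 to -0.44 and an adjusted p up to 0.128. Scaling by total counts in place of TMM factors moved the median of all genes by 0.20 on the log2 scale, gave Ntrk2 -0.29 (edgeR adjusted p = 0.119), and changed the share of called genes that were higher from 29.9% to 74.9%.

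The 13-week levels of Ntrk2 in HD overlapped those of WT, and the 8-week levels lay above them without passing the test. WT striatum had 303 CPM at 13 weeks and 348 CPM at 8 weeks, and WT cortex 449 and 470 CPM. Both HD libraries of each region were above WT at 8 weeks, by a mean of 0.35 in striatum and 0.44 in cortex on the log2 scale; 15.3% of genes were higher without overlap in both regions. The fitted difference at 8 weeks was 0.40 ± 0.14 SE (edgeR adjusted p = 0.198), a comparison in which 2.1% of genes were called, and at 13 weeks it was 0.02 ± 0.14 SE (edgeR adjusted p = 0.954). Neither passed, and nor did the change with age in HD less that in WT, -0.38 ± 0.19 SE (edgeR adjusted p = 0.602). The comparisons over age in HD and with WT share the HD libraries.

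Cortex had more Ntrk2 than striatum in every pair. The cortex to striatum ratio was 1.32 to 1.48, narrow beside that of Bdnf, and the log2 difference was -0.47 ± 0.09 SE (edgeR adjusted p = 0.00279; 6 of 6 pairs, exact permutation p = 0.0312). The levels of the 2 regions overlapped all the same, at 294 to 457 CPM in striatum and 396 to 678 CPM in cortex.

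Ntrk2 makes a full-length receptor with a kinase domain and truncated receptors without it, and astrocytes are known to make mainly a truncated form. The gene lies at chr13:58806569-59133970 on the plus strand. Its 7 annotated coding transcripts finish at 6 different 3′ ends: those of 821 residues end at 59129965 and 59133970, and those of 466 to 492 residues end from 58878749 to 58937027. The deposited row gives 1 count per gene, so the kinase and truncated forms cannot be told apart in it.

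The summed level of 6 astrocyte markers was also lower after onset in HD and highest in preHD cortex. It was 4401 to 4407 CPM in preHD-CTX, 2280 to 2498 CPM in postHD-CTX, 2850 to 3220 CPM in preHD-STR and 1744 to 1982 CPM in postHD-STR. WT libraries had 2976 and 3068 CPM in cortex and 2421 and 2514 CPM in striatum at 13 and 8 weeks. Slc1a2 alone made 68.7% to 84.2% of these sums. The other 5 markers together were at 697 and 738 CPM in preHD-CTX, 523 and 583 CPM in postHD-CTX, 669 and 766 CPM in preHD-STR and 523 and 620 CPM in postHD-STR, so without it preHD cortex was no longer above preHD striatum. In HD the fall with age reached the threshold for 1 of the 6 markers, the glutamate transporter Slc1a2 (log2 -0.92 ± 0.12 SE, edgeR adjusted p = 0.0036). That is 16.7% of the list, beside the 6.45% of all genes called. Changes were negative for 5 of the 6, with a median of -0.57, and 3 had an unadjusted p under 0.05 by edgeR. The markers that did not pass include Gfap (0.25 ± 0.88 SE) and Gjb6 (-0.10 ± 0.19 SE). No astrocyte marker was at 0 in any library. The part of astrocytes in the Ntrk2 difference was not tested, and in tissue RNA fewer cells of a type and less RNA per cell cannot be told apart.

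**Figure D2:**
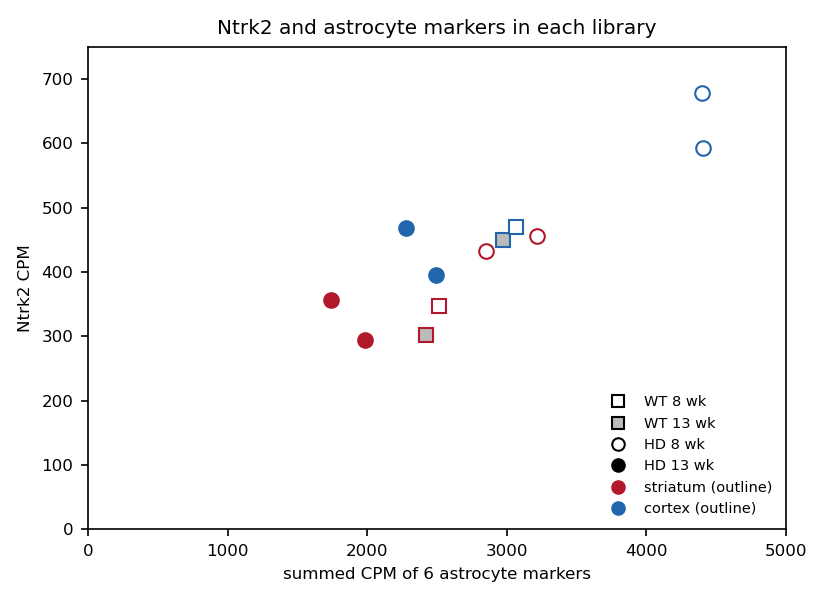
Ntrk2 level (CPM, vertical) against the summed level of 6 astrocyte markers (CPM, horizontal) in each of the 12 libraries; red is striatum, blue is cortex, and the marker shape and fill give genotype and age. The preHD-CTX libraries, at 592 and 678 CPM of Ntrk2, are highest on both axes and the postHD-STR ones, at 294 and 356 CPM, are lowest on the horizontal axis.

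At 13 weeks both HD values of Ntrk3 lay below WT in either region, as they did for 22.3% of the 14706 genes tested. The difference did not pass the test. The level in striatum was 88.9 and 70.2 CPM in postHD, 136 and 57.7 CPM in preHD, 126 CPM in postWT and 121 CPM in preWT. In cortex it was 72.8 and 86.6 CPM in postHD, 114 and 119 CPM in preHD, 107 CPM in postWT and 113 CPM in preWT. Apart from 1 library, the preHD and WT values all lay between 107 and 136 CPM and the 4 postHD values between 70.2 and 88.9 CPM. The exception, at 57.7 CPM, was the second preHD-STR library.

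The fitted difference from WT at 13 weeks was -0.55 ± 0.26 SE (edgeR adjusted p = 0.241) and the change with onset in HD -0.41 ± 0.23 SE (edgeR adjusted p = 0.346). Without the second preHD-STR library, the WT difference stayed at -0.55 with an adjusted p of 0.0177, and the change with onset was -0.63 over both regions (edgeR adjusted p = 0.00692), -0.77 in striatum (edgeR adjusted p = 0.0193) and -0.54 in cortex (edgeR adjusted p = 0.0467). All of these then passed. Without the first preHD-STR library instead, the cortical change passed (-0.56, edgeR adjusted p = 0.0451), while the 2-region change was -0.17 (edgeR adjusted p = 0.672) and the striatal one turned to 0.48 (edgeR adjusted p = 0.191). Leaving out either preHD-STR library, the first as well as the second, also raised the number of all genes called after onset above the 900 of the full fit. At 8 weeks HD and WT differed by -0.13 ± 0.27 SE (edgeR adjusted p = 0.876), which turned to 0.091 without the second preHD-STR library.

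The regional difference of Ntrk3 was -0.03 ± 0.18 SE on the log2 scale (edgeR adjusted p = 0.930), and was higher in striatum in 4 of 6 pairs. The sign of so small a difference turned under total-count and upper-quartile scaling and, at 0.12, without the second preHD-STR library. The gene lies at chr7:78175959-78738012 on the minus strand, and its 6 coding transcripts finish at 6 different 3′ ends, with full-length and shorter receptors again pooled in 1 count.

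Ngfr, the p75 receptor, was a low transcript that was higher in striatum. Striatal counts were 51 and 60 in postHD, 11 and 191 in preHD, 45 in postWT and 10 in preWT. Cortical counts were 1 and 8 in postHD, 2 and 14 in preHD, 10 in postWT and 3 in preWT. The striatal library exceeded its cortical partner in 6 of 6 pairs (log2 3.26 ± 0.73 SE, edgeR adjusted p = 0.00973; exact permutation p = 0.0312), and 8.51% of genes were called higher in striatum. Without the second preHD-STR library it was 2.43 (edgeR adjusted p = 0.0161). With limma voom and a random block for the libraries of one genotype, age and number it was 3.16 and no longer passed (adjusted p = 0.0666).

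Within striatum 1 library held most of the Ngfr spread. The level was 4.74 and 6.43 CPM in postHD, 4.29 CPM in postWT, 1.28 and 20.5 CPM in preHD and 1.005 CPM in preWT. The highest value was in the library that also held the thalamic and oligodendrocyte markers. The HD to WT difference at 8 weeks, 2.84 ± 1.25 SE (edgeR adjusted p = 0.344), rests largely on that library and was 1.47 without it; at 13 weeks the difference was -0.21 ± 1.01 SE (edgeR adjusted p = 0.935). The change with onset in HD was -1.01 ± 0.90 SE (edgeR adjusted p = 0.562) and turned to 0.31 without that library (edgeR adjusted p = 0.889).

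Ngfr in the forebrain is best known from cholinergic neurons of the basal forebrain, and cholinergic markers were high in the same region. The summed level of 5 such markers was 40.2 to 161 CPM in striatum and 0.518 to 6.17 CPM in cortex, where Chat, Slc5a7, Slc18a3, Lhx8 and Gbx2 were each at 0 in at least 1 library. They did not follow Ngfr between libraries: the postWT-STR library had 161 CPM of the markers and 4.29 CPM of Ngfr, the postHD-STR ones 40.2 and 42.7 CPM of the markers and 4.74 and 6.43 CPM of Ngfr. Chat, which makes acetylcholine, was lower in HD than in WT at 13 weeks (log2 -2.42 ± 0.43 SE, edgeR adjusted p = 0.00806). The part of cholinergic neurons in the Ngfr difference between regions was not tested. Ngfr lies at chr11:95568818-95587735 on the minus strand with 1 annotated coding transcript.

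Sort1 was the member that fell in HD against both comparators. In striatum its level was 99.0 and 108 CPM in postHD, 146 and 169 CPM in preHD, 186 CPM in postWT and 145 CPM in preWT. In cortex it was 126 and 119 CPM in postHD, 249 and 260 CPM in preHD, 279 CPM in postWT and 272 CPM in preWT. All 4 postHD libraries were below every other library of their region. No other member showed that separation in both regions, which 6.61% of the 14706 genes tested against WT showed.

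With onset the log2 change of Sort1 in HD was -0.82 ± 0.13 SE over both regions, a 1.77-fold decrease (edgeR adjusted p = 0.00826; exact permutation p = 0.0556, the smallest possible). In cortex it was -1.07 ± 0.16 SE, a 2.10-fold decrease (edgeR adjusted p = 0.027), in a comparison where 0.591% of 14392 genes were called and 0.556% were lower. In striatum, where 0.16% were called, it was -0.58 ± 0.16 SE (edgeR adjusted p = 0.177). Without the first preHD-STR library the striatal change was -0.70, and without the second it was -0.49. Cortical Sort1 fell to 48.2% and striatal Sort1 stood at 65.8% of the preHD level. The difference between the regional changes was itself 0.49 ± 0.22 SE and did not pass (edgeR adjusted p = 1), nor did any gene in that comparison by edgeR, where 519 had an unadjusted p under 0.05; 17 genes passed by DESeq2.

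Against WT at 13 weeks the log2 difference of Sort1 was -1.01 ± 0.15 SE, a 2.01-fold lower level (edgeR adjusted p = 0.0035), where 7.36% of genes were called and 4.26% were lower. By region the HD mean over WT was -0.84 on the log2 scale in STR and -1.19 in CTX, without a test. The 4 postHD libraries lay below WT of their region, as they did for 22.3% of genes. At 8 weeks the difference was 0.00 ± 0.16 SE (edgeR adjusted p = 0.998), with a log2 ratio by region of 0.12 in STR and -0.10 in CTX, and its sign turned under total-count scaling and, at -0.011, without the second preHD-STR library. In WT the log2 ratio of 13 to 8 weeks, which is also one of female to male, was 0.35 in striatum and 0.03 in cortex. The change with age in HD less that in WT was -1.01 ± 0.22 SE (edgeR adjusted p = 0.151), in a comparison where 0.116% of genes were called. Without the second preHD-STR library it was -0.998 and passed (edgeR adjusted p = 0.0443).

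Several single libraries held the Sort1 calls near the threshold. Without the second postHD-CTX library, which held the choroid plexus markers, the change with onset was -0.76 (edgeR adjusted p = 0.0488), that in cortex -1.04 (edgeR adjusted p = 0.421) and the WT difference at 13 weeks -0.93 (edgeR adjusted p = 0.0111). The change with onset had an adjusted p of 0.0529 without the first postHD-CTX library, and the WT difference at 13 weeks one of 0.0791 without the postWT-STR library, with log2 changes of -0.92 to -0.76 and -1.09 to -0.93 over all libraries left out. The cortical call was lost in 6 of 8 such fits, all but those without a preHD-STR library, over changes of -1.101 to -1.04, and under total-count scaling at -0.82 (edgeR adjusted p = 0.0705), a scaling that moved the median of all genes in cortex by 0.25 and the share of higher calls from 5.88% to 37.5%.

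Markers of cortical excitatory neurons were at 1186 to 1255 CPM in postHD-CTX, 1461 to 1572 CPM in preHD-CTX and 1760 to 1903 CPM in WT cortex. None of the 8 passed the test with onset, in cortex or over both regions. All 8 changes over both regions were negative (median log2 -0.52), and 7 of the 8 were negative in cortex (median -0.395). Striatal neuron markers were at 968 to 1018 CPM in postHD-STR, 1711 and 5095 CPM in preHD-STR and 4510 to 5028 CPM in WT striatum. Over both regions 2 of 6 tested were lower with onset, 33.3% beside the 6.45% of all genes. In striatum alone none of the 6 passed, where 0.16% of all genes were called. All 6 changes there were negative, with a median of -1.81 and unadjusted p-values under 0.05 by edgeR. These lists moved with age and genotype beside Sort1, and their part in its fall was not tested.

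Sort1 was also a more cortical than striatal transcript. Cortex was higher in 6 of 6 pairs, with ratios of 1.101 to 1.87 (log2 -0.56 ± 0.11 SE, edgeR adjusted p = 0.00276; exact permutation p = 0.0312). The smallest ratios were the 2 of postHD, 1.27 and 1.101, and the other 4 pairs ran from 1.502 to 1.87. Sort1 lies at chr3:108284082-108361511 on the plus strand, with 2 coding transcripts of 825 and 858 residues whose 3′ ends differ.

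**Figure D3:**
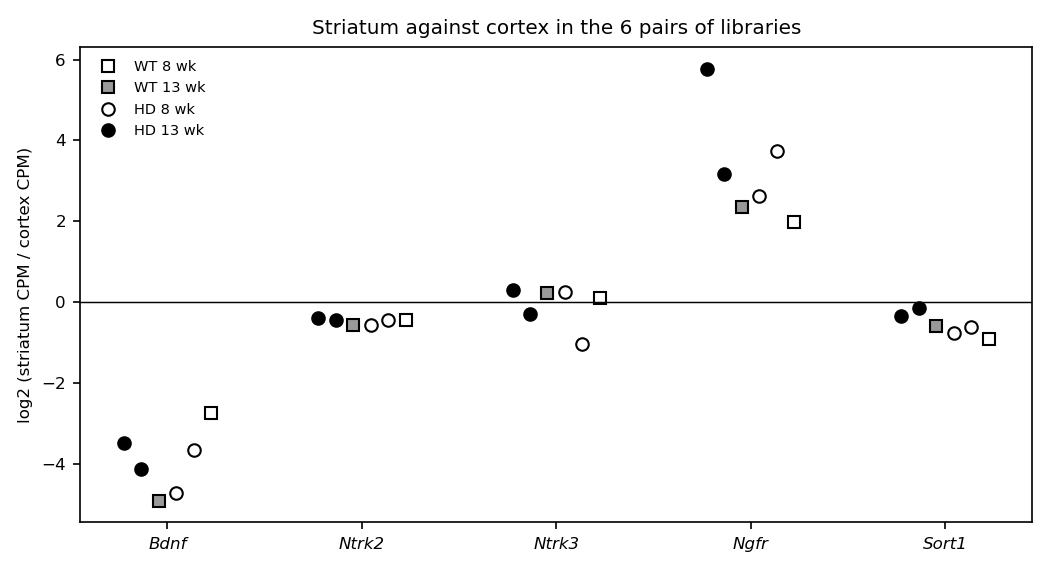
Log2 ratio of striatal to cortical CPM in the 6 pairs of libraries of the same genotype, age and number, for the 5 transcripts above the filter; marker shape and fill give genotype and age. All 6 points are below 0 for Bdnf, Ntrk2 and Sort1 and above 0 for Ngfr, and the Bdnf points run from -4.92 to -2.75.

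**Figure D4:**
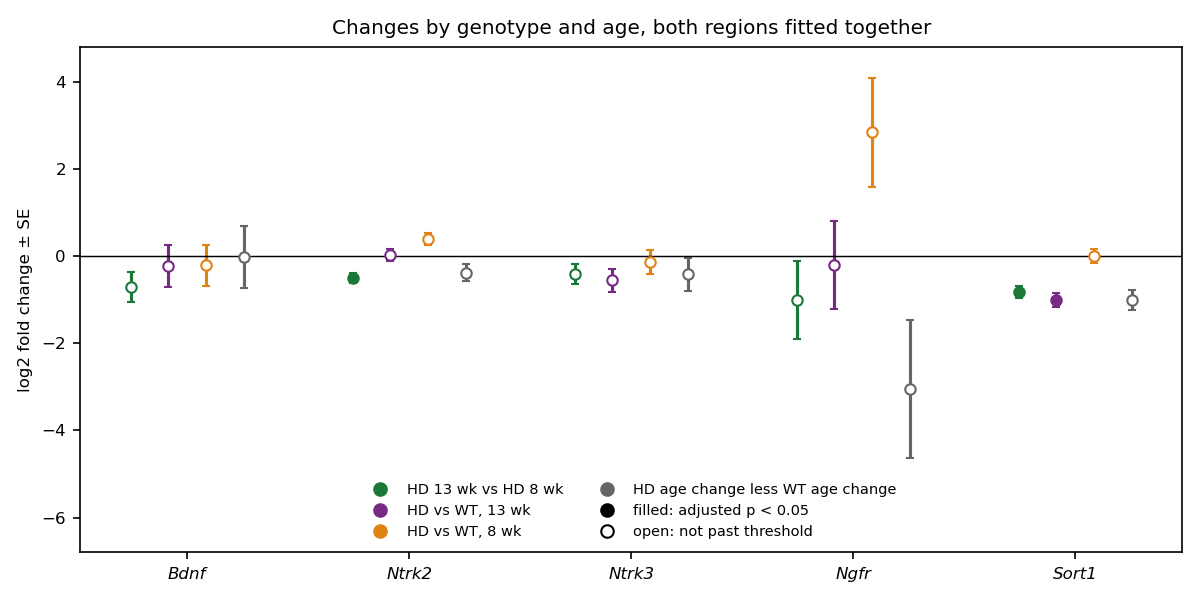
Fitted log2 changes with 1 SE for the 5 transcripts tested, both regions together. The comparisons are HD after against before onset, and HD against WT at 13 weeks and at 8 weeks. The last comparison is the change with age in HD less that in WT. Filled points passed an adjusted p of 0.05. Filled points are those of Sort1 after onset (-0.82) and at 13 weeks (-1.01) and of Ntrk2 after onset (-0.50).

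Counted over the members, 2 of the 5 tested were lower with onset in HD, Sort1 and Ntrk2, where 4.53% of all genes were. Against WT at 13 weeks 1 was lower, Sort1, where 4.26% of all genes were, and at 8 weeks none was called, where 2.1% of all genes were. By striatum against cortex 3 were lower, Bdnf, Ntrk2 and Sort1, and 1 was higher, Ngfr, where 12.1% of all genes were lower and 8.51% higher. At 8 weeks Ngfr and Ntrk2 had unadjusted p-values under 0.05, at 0.045 and 0.0127, and by DESeq2 no member was called.

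The wider set of genes around the pathway was read as 6 lists of 126 symbols, of which 122 were tested in HD. Among neurotrophin receptors and sortilin relatives, 2 of 10 were lower with onset and none higher, and both are members. Their median log2 change was -0.53, against 0.00 over all genes tested, of which 4.53% were lower. Sorcs3, another sortilin relative, was at -0.78 ± 0.21 SE (edgeR adjusted p = 0.0558) and did not pass. Without the second preHD-STR library more of the 10 were lower, as were more of all genes tested. Between regions, Sorl1, also of the sortilin family, was lower in striatum (log2 -1.07 ± 0.10 SE, edgeR adjusted p = 1.97e-05).

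Of the genes known to respond to BDNF, 7 of 23 were lower with onset and none higher (30.4%, median log2 -1.19), beside the 6.45% called over all genes. Against WT at 13 weeks 13 of 23 were lower and none higher (56.5%, median -1.54), beside 7.36% over all genes. By edgeR, the neuropeptide genes Penk (-1.81 ± 0.41 SE, edgeR adjusted p = 0.0435) and Npy (-1.65 ± 0.23 SE, adjusted p = 0.00591) and the synaptic pentraxin Nptx2 (-1.64 ± 0.26 SE, adjusted p = 0.00827) had the largest falls with onset among those that passed with a mean of at least 5 CPM. Egr2 (-2.44 ± 0.65 SE, adjusted p = 0.0553) and Arc (-1.71 ± 0.44 SE, adjusted p = 0.0617) were at lower values without passing. Against WT the largest by the same limits were Egr2 (-4.31 ± 0.70 SE, adjusted p = 0.00657), Penk (-2.85 ± 0.45 SE, adjusted p = 0.00657) and Arc (-2.74 ± 0.46 SE, adjusted p = 0.00806), of which Egr2 and Arc are immediate early genes switched on by neuronal activity. None of the 23 passed at 8 weeks by edgeR, where 7 had an unadjusted p under 0.05 and the median was -0.60. Penk is also a marker of striatal projection neurons, and many stimuli besides BDNF act on these genes.

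Egr2 had 3 to 27 reads in the postHD libraries, 16 to 107 in preHD and 190 to 248 in WT. For this gene HD libraries of either age were therefore below every WT library. The share of all genes with that separation was not counted, and BDNF signalling itself was not measured. Penk in striatum was 219 and 236 CPM in postHD, 468 and 1701 CPM in preHD and 2075 and 2184 CPM in WT, where the lower preHD value was again that of the second library.

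Of the regulators of Bdnf transcription 4 of 21 were lower with onset and none higher (19%, median -0.33), beside the 6.45% of all genes. The kinases Camk4 (-1.53 ± 0.20 SE, edgeR adjusted p = 0.00487) and Camk2a (-1.29 ± 0.21 SE, adjusted p = 0.011) and the repressor Bhlhe40 (-1.13 ± 0.28 SE, adjusted p = 0.049) had the largest falls among those that passed with a mean of at least 5 CPM, and Npas4 was at -2.17 ± 0.66 SE without passing (adjusted p = 0.0866). Against WT at 13 weeks 6 were lower, led by the activity-induced factor Npas4 (-2.85 ± 0.69 SE, adjusted p = 0.0329), Srf (-1.45 ± 0.24 SE, adjusted p = 0.00626) and Camk4 (-1.40 ± 0.27 SE, adjusted p = 0.0118), and 1 was higher, the coactivator Crebbp (0.61 ± 0.17 SE, adjusted p = 0.0455). These 7 are 33.3%, beside the 7.36% of all genes, and the median of the 21 was -0.02. Between regions 5 were lower in striatum and none higher, 23.8% and so near the 20.6% of all genes, with Mef2c at -2.55 ± 0.11 SE (adjusted p = 3.38e-08).

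Of the genes that process, sort or carry BDNF 4 of 25 were lower with onset (16%, median -0.13), beside the 6.45% of all genes. The granule proteins Chga (-0.86 ± 0.20 SE, edgeR adjusted p = 0.039) and Chgb (-0.65 ± 0.11 SE, adjusted p = 0.0104) and the convertase Pcsk2 (-0.77 ± 0.11 SE, adjusted p = 0.00642) led. At 13 weeks 3 were below WT, 12% beside the 7.36% of all genes: the kinesin Kif5c (-0.81 ± 0.14 SE, adjusted p = 0.00562), Chgb (-0.63 ± 0.13 SE, adjusted p = 0.0141) and Pcsk2 (-0.60 ± 0.14 SE, adjusted p = 0.0255). None of the 25 was higher in either comparison. Between regions 8 were lower and 3 higher in striatum, 44% beside the 20.6% of all genes, among the latter Hap1, the huntingtin-associated protein (1.68 ± 0.38 SE, adjusted p = 0.0132).

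Of the adaptors and kinases downstream of Trk and p75 receptors 2 of 42 were lower with onset and none higher, 4.76% beside the 6.45% of all genes, and the median was 0.00. These were Lingo1, a p75 co-receptor (-1.62 ± 0.22 SE, edgeR adjusted p = 0.00525), and Hras (-0.91 ± 0.18 SE, adjusted p = 0.0186). At 13 weeks 3 were below WT, Lingo1 (-1.06 ± 0.23 SE, adjusted p = 0.0158), Hras (-1.02 ± 0.23 SE, adjusted p = 0.0201) and Mapk3 (-0.65 ± 0.13 SE, adjusted p = 0.0125), and 3 were above it, Sos1 (0.76 ± 0.18 SE, adjusted p = 0.0263), Pik3r1 (0.67 ± 0.16 SE, adjusted p = 0.025) and Ptpn11 (0.55 ± 0.15 SE, adjusted p = 0.0439). At 8 weeks Pik3r1 was again higher in HD (0.88 ± 0.16 SE, adjusted p = 0.0163). In the HD to WT fits total-count scaling moved the share of higher calls over all genes from 42.1% to 55.2% at 13 weeks and from 92.9% to 68.4% at 8 weeks, and in the regional fit from 41.4% to 52.9%.

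**Figure D5:**
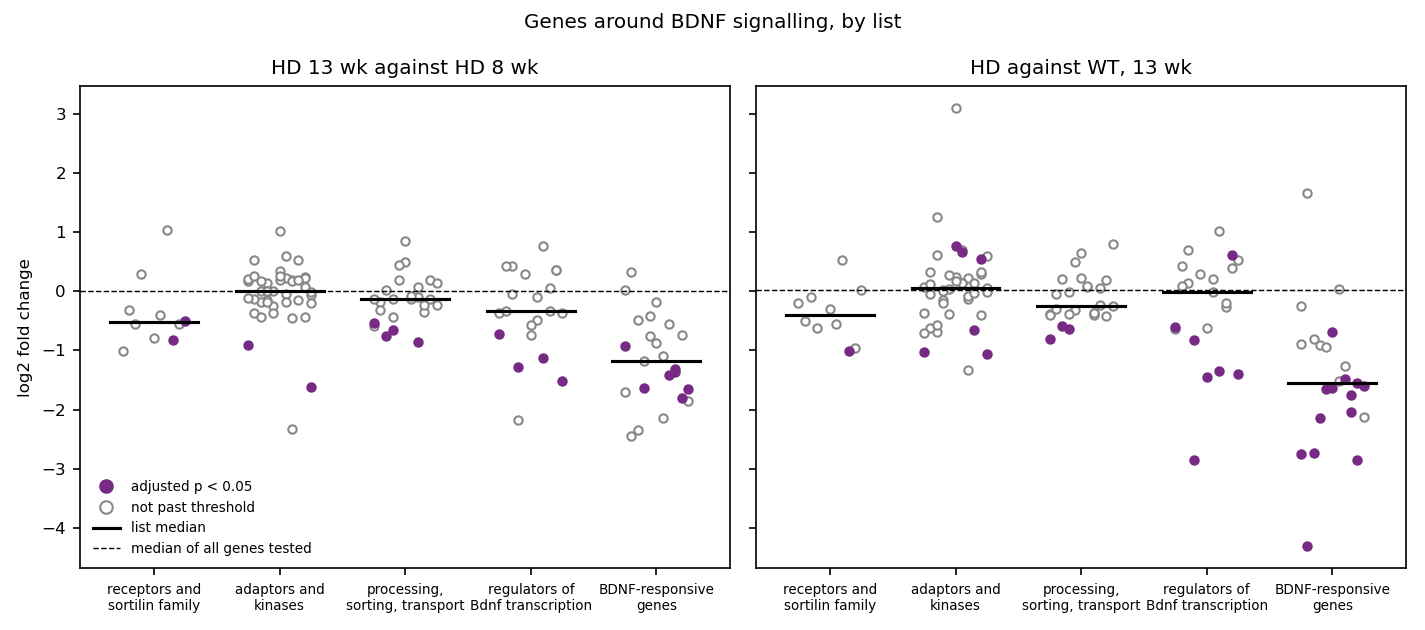
Fitted log2 changes of single genes in 5 lists around BDNF signalling, for HD after against before onset and for HD against WT at 13 weeks; purple points passed an adjusted p of 0.05, open grey points did not, solid bars mark the list median and the dashed line the median of all genes tested. The genes known to respond to BDNF sit lowest, with medians of -1.19 and -1.54.

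Over the 12 libraries, the transcripts most like Bdnf in log2 level among 10770 genes were Ovol2 (Pearson r = 0.992), Pter (r = 0.989) and Ncald (r = 0.984). Those most like Ntrk2 were A830010M20Rik (r = 0.953), Opcml (r = 0.948) and Abhd6 (r = 0.947). For Ntrk3 they were Lrrc6 (r = 0.973), Kcnq5 (r = 0.956) and Rabl6 (r = 0.95), and for Sort1 they were Stk16 (r = 0.971), Tuba4a (r = 0.966) and Nat8l (r = 0.959). The libraries share genotype, age and region, so these values describe likeness of pattern only.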

How the data were processed

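RNA from striatum and cortex of R6/2 HD and WT mice was made into 3′ libraries with the Lexogen QuantSeq kit, per the labels. The authors deposited 1 table of raw counts per gene symbol for each of the 12 libraries. The submitters' processing notes name Bowtie2, bedtools and mm10; the annotation, counting rule and use of strand are not given in the sources used here, so reads of antisense genes that overlap Bdnf, Ntrk2, Ntrk3 and Sort1 cannot be told apart from theirs. The tables held 23282 rows, 4306 without a count and 44 repeating a symbol (kept as separate rows). Groups and numbers came from the labels; an unnumbered library is replicate 1.

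The deposited counts were analysed with edgeR 4.0.16 under R 4.3.3. Genes had to pass filterByExpr at a count of 10, libraries were scaled by TMM factors, and log2 fold changes were tested by robust quasi-likelihood with Benjamini-Hochberg adjustment over all genes and a threshold of 0.05. HD ages were compared over 8 HD libraries with region as a term, or with a mean per group for single regions. HD and WT, and regions, were compared over all 12 libraries with 4 groups of genotype and age plus region; HD libraries then give most of the spread, as WT has 1 library per age and region. No replicate pair was within sampling noise: chi-square statistics divided by their degrees of freedom were 6.98 to 73.0. Depth was 8814386 to 12091201 counts per library; intervals and floors of 3 counts cover counting error only, as the reads carry no molecular identifiers in the deposited counts.

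The members and the gene lists were chosen with earlier results of these data known. Named list genes had an adjusted p under 0.05 and a mean of at least 5 CPM, at most 3 in each direction per list and comparison; Sorcs3 and the marker genes Drd2, Gpr6, Slc1a2, Gfap, Gjb6 and Chat, and Egr2, Arc and Npas4 with onset, were named after their values were seen. Some list genes are not reported here. The genes most like Bdnf, Ntrk2, Ntrk3 and Sort1 had the highest Pearson r of log2 CPM with a prior count of 2 among genes of at least 5 CPM. Gene positions are from GENCODE M21 on GRCm38, the assembly that mm10 names, and promoter sequences from RefSeq on GRCm38.p6, which had entries for 4 of the 6 members. Alternatives were DESeq2 1.42.0, limma 3.58.1 with voom, other scalings, no filter on low counts, a stricter filter, Rn45s left out, a sex term, a mean for each of 8 groups, a replicate block, and leaving out each library. The edgeR, DESeq2 and voom fits were tested on simulated data for some of the comparisons, and the other steps were not.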

Additional observations from a re-analysis of the deposited data

Results flagged for a closer look

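In 7 cases a member's HD libraries lay on opposite sides of WT in the regions or ages compared, all above WT in one and all below it in the other. WT had 1 library per age and region, and none of these differences was tested. A library was placed on a side by any difference in CPM, however small. In every case at least 1 HD library had a 95% Poisson interval that covered the WT value. Such opposite directions were seen for 12.8% to 19.4% of 12680 genes, depending on the contrast.

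For Bdnf the HD mean over WT, on the log2 scale, stood at 0.53 in striatum against -0.61 in cortex at 13 weeks, a gap of 1.14, and -0.79 in striatum and 0.43 in cortex at 8 weeks, a gap of -1.22. Read within a region, the same values give a gap of 1.32 between 13 and 8 weeks in striatum and of -1.04 in cortex. The difference was not tested in any of these 4 cases, and the striatal values rest on 28 to 126 reads per library. The second postHD-STR library had 36 reads against 35 in postWT-STR. The first preHD-CTX library had 85.9 CPM against 85.1 CPM in preWT-CTX.

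For Sort1 the ratio in striatum was -0.84 at 13 weeks and 0.12 at 8 weeks, a gap of -0.96, and at 8 weeks it was 0.12 in striatum and -0.10 in cortex, a gap of 0.22. For Ntrk3 in cortex it was -0.42 at 13 weeks and 0.04 at 8 weeks, a gap of -0.46. The difference was not tested in any of these 3 cases. At 8 weeks the first HD library was level with WT for both genes. It had 145.8 against 145.4 CPM of Sort1 in striatum and 113.53 against 113.46 CPM of Ntrk3 in cortex.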

How the results depend on the processing

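Of 767 values of single members under all alternatives, 681 kept their direction and their side of the threshold, 16 lost a call, 12 gained one and 58 turned their sign, none of the 58 among values that had passed. The regional calls of Bdnf, Ntrk2 and Sort1 held under every alternative run. HD was not tested against WT within a region, where WT has 1 library per age, and the depth limits Ntf3, Ngfr and striatal Bdnf. The requirement of at least 1 CPM in every library removed Ngfr.

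Total counts in place of TMM factors, an alternative chosen after seeing the data, left the change with onset of Ntrk2 at -0.29 and of cortical Sort1 at -0.82, both short of the threshold, and so 1 member called over both regions and 0 in cortex. It gave Ntrk3 0.038 between regions, Sort1 -0.13 against WT at 8 weeks and Bdnf 0.21 for the change with age in HD less that in WT. All genes called became 1634 with onset, 48 in cortex and 8 for the change less that in WT. Upper-quartile scaling gave 0.043 for that last Bdnf value, 0.0096 for Ntrk3 between regions, -0.0026 for Sort1 at 8 weeks, 45 genes in cortex and 5 for the change less that in WT. Without Rn45s Sort1 was -0.011 at 8 weeks, and with no filter on low counts -0.00076.

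DESeq2 called Sort1 for the change with age in HD less that in WT (-1.02, adjusted p = 0.0104), 1 member, and gave Bdnf 0.057 there. It called 1680 genes with onset, 447 in striatum, 558 in cortex, 17 for the difference of the regional changes, 1813 at 13 weeks, 674 at 8 weeks and 231 for the change less that in WT. With no filter the counts were 163 in striatum, 251 in cortex, 1 for the difference of the regional changes and 30 for the change less that in WT. A mean for each of 8 groups gave 130 genes at 8 weeks, 2 for the change less that in WT and 0.13 for Bdnf there. Voom with a random block left Ngfr between regions at 3.16 without a call (adjusted p = 0.0666), gave Ngfr 0.051 with onset in striatum and 0.069 at 13 weeks and Bdnf 0.11 at 8 weeks, and called 153 genes in cortex.

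The replicate numbers were not shown to pair the libraries: replicate differences of the HD groups correlated at 0.0758 to 0.338, and not all of the 6 correlations were over 0.1. With a replicate block, which in HD is the same as a sex term, 36 genes were called in striatum against 23 without it, Bdnf was at 0.048 for the change less that in WT, Ngfr at 0.029 with onset in striatum and Sort1 at -0.041 at 8 weeks, and the block changed no call of a member. With sex as a term in the 12-library fits Bdnf was at 0.51 for the change less that in WT and 0.022 at 13 weeks. Ngfr was then at 0.85 and Ntrk2 at -0.088 at 13 weeks, and Sort1 at -0.041 at 8 weeks. For the change less that in WT 0 genes were called with that term. In the fit of the 8 HD libraries the sex term gave the same count as the block, 36 genes in striatum. The cause of these shifts was not tested.

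Leaving out each library in turn also moved the counts of all genes called. They ran from 211 (without postHD-CTX replicate 1) to 1518 (without preHD-STR replicate 2) with onset, from 0 (without postHD-CTX replicate 2) to 1202 (without preHD-STR replicate 1) in cortex, from 0 (without preHD-CTX replicate 1) to 1083 (without preHD-STR replicate 1) in striatum, from 29 (without postWT-STR) to 1834 (without preHD-STR replicate 2) at 13 weeks, from 0 (without preWT-STR) to 444 (without preHD-STR replicate 2) at 8 weeks, and from 0 to 168 for the difference of the regional changes and 0 to 211 for the change less that in WT. Counts of 0 are by edgeR after adjustment. Members called were 0 to 3 with onset, 0 to 3 in cortex, 0 to 2 in striatum, 0 to 2 at 13 weeks and 0 to 1 for the change less that in WT.

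For single members the same omissions gave these ranges. With onset over both regions they were -0.92 to -0.76 for Sort1, -0.57 to -0.44 for Ntrk2, -0.94 to -0.44 for Bdnf, -0.63 to -0.17 for Ntrk3 and -1.57 to 0.31 for Ngfr. In cortex they were -1.101 to -1.04 for Sort1, -0.69 to -0.46 for Ntrk2, -0.70 to -0.44 for Ntrk3 and -3.16 to 0.86 for Ngfr. In striatum they were -0.70 to -0.49 for Sort1, -1.22 to 0.57 for Bdnf, -0.77 to 0.48 for Ntrk3 and -1.86 to 2.12 for Ngfr. The difference of the regional changes was -0.41 to 1.36 for Bdnf, -0.23 to 1.04 for Ntrk3 and -1.82 to 3.20 for Ngfr. Against WT at 13 weeks they were -1.09 to -0.93 for Sort1, -0.71 to -0.39 for Ntrk3, -0.68 to 0.61 for Bdnf, -0.87 to 0.28 for Ngfr and -0.049 to 0.077 for Ntrk2. At 8 weeks they were -0.20 to 0.23 for Sort1, -0.83 to 0.47 for Bdnf and -0.33 to 0.091 for Ntrk3, and the change less that in WT was -1.24 to -0.82 for Sort1 and -0.67 to 0.79 for Bdnf. Ntrk3 between regions was -0.17 to 0.12.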
